A study of Mus musculus with 115 samples.

Results

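The effect of losing Ant1 on heart RNA was compared between a vector that carried an Ant1 coding sequence and a control vector. The comparison used 14 mouse hearts with 70 of the 112 bulk libraries in the series, chosen by library barcode and treated as 4 groups. Control-vector wild type hearts were C57BL/6JEiJ mice given AAV2/9Des-Gfp (4 hearts, 22 libraries). Control-vector knockout hearts were C57BL/6JEiJ ANT1 -/- mice given the same vector (3 hearts, 18 libraries). Ant1-vector wild type hearts received AAV2/9Des-Gfp-mAnt1 (3 hearts, 10 libraries), and Ant1-vector knockout hearts carried the ANT1 -/- genotype and received that vector (4 hearts, 20 libraries). All mice were injected into the pericardium with 2.5e+11 vector genomes. Hearts of ANT1 -/- ND6 P25L mice of the series shared the model fit and are not compared here. The series lists 1, 3, 6, 9 and 12 months after injection as collection times, but the labels tie no heart to a time, an age or a sex.

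Ant1, the protein of Slc25a4, exchanges ADP for ATP across the inner mitochondrial membrane and is the main isoform of this carrier in heart and skeletal muscle. Its loss in mice is a known model of mitochondrial myopathy with cardiac enlargement. The AAV9 capsid transduces heart muscle, so the Ant1 vector is a way to return the carrier to cardiomyocytes, and the title of the series names its effect on cardiomyopathy as the question. An interaction here is the log2 knockout effect under the Ant1 vector minus that under the control vector: it is 0 where the knockout changed a gene equally under both vectors.

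Libraries of a heart were summed, giving 16827518 to 53106670 reads on 23930 amplicons per heart, and levels are given as CPM, read counts scaled to the same library total in every heart. Cardiomyocyte markers dominated every heart, with a summed level of 68580 to 81270 CPM for 9 ventricular genes. Wild type heart 70 of the control-vector group stood apart, with a lung marker sum of 1784 CPM against 0.0595 to 229 CPM in the other hearts, and its adipocyte marker sum of 991 CPM was also the highest. Liver marker sums were 76.8 to 384 CPM in control-vector wild type hearts and 30.9 to 116 CPM in the other hearts. Ddx3y of the Y chromosome measured 196 to 260 CPM and Xist 0 to 1.76 CPM in the 14 hearts, the pattern of male hearts. No library table held hearts of both vectors, and in bulk tissue fewer cells of a type cannot be told apart from less RNA per cell.

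The target gene followed its labels in all 14 hearts. Slc25a4, at chr8:46207168-46211062 of GRCm38, measured 11260, 11380, 10470 and 8464 CPM in control-vector wild type hearts and 2.03, 0.617 and 0.331 CPM in control-vector knockout hearts. In Ant1-vector hearts it measured 10210, 8968 and 10260 CPM in wild type and 197, 198, 241 and 174 CPM in knockout hearts. Every knockout heart given the Ant1 vector thus lay above every knockout heart given the control vector and below every wild type heart, at 1.78 to 2.46% of the mean of wild type hearts given the same vector. The knockout effect shrank from a log2 fold change of -13.35 ± 1.03 (SE) to -5.60 ± 0.64 (interaction 7.75 ± 1.03, adjusted p = 0.00316). The 18 genes that differed between vectors in wild type hearts did not include Slc25a4 (log2 -0.08, adjusted p = 0.975).

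Few knockout effects were separable between the vectors. Of 15403 genes tested, 2220 (14.4%) passed for knockout against wild type under the control vector at an adjusted p of 0.05, with 1261 (8.19%) higher and 959 (6.23%) lower in the knockout. Under the Ant1 vector 1524 (9.89%) passed, 827 (5.37%) higher and 697 (4.53%) lower. The interaction passed for 77 genes (0.500%), by edgeR's quasi-likelihood test with Benjamini-Hochberg adjustment as for every adjusted p given without another method, of which 34 (0.221%) were higher and 43 (0.279%) lower under the Ant1 vector. At an unadjusted p of 0.05 the interaction count was 2259. Among the 2220 control-vector effects, 12 (0.541%) shrank (same sign, nearer 0 and interaction passing), 0 grew, 44 (1.98%) reversed (opposite sign and interaction passing) and 669 (30.1%) stayed (same sign, passing under both vectors, interaction not passing). The largest class was the 1495 (67.3%) that passed under the control vector, did not pass under the Ant1 vector and had no passing interaction. For these no fate was resolved, and the median 95% interval of an interaction extended 0.444 log2 units to each side.

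Most control-vector effects were smaller under the Ant1 vector, but the reverse reading gave a like result. Of the 2220 effects, 86.4% were nearer 0 and 82.6% kept their sign under the Ant1 vector, and the median ratio of the Ant1-vector to the control-vector log2 effect was 0.485. Starting instead from the 1524 effects that passed under the Ant1 vector, 74.3% were nearer 0 and 87.9% kept their sign under the control vector, with a median ratio of 0.636. Each reading selects genes on the effect it starts from, so neither share is a test of a loss of effect. Both effects passed for 688 genes, 31% of the control-vector calls and 45.1% of the Ant1-vector calls, and 674 of them had the same sign. Read from the Ant1 vector, 1 (0.0656%) of the 1524 effects shrank toward the control vector, 5 (0.328%) grew, 34 (2.23%) reversed, 669 (43.9%) stayed and 815 (53.5%) were unresolved. Over all tested genes 62.6% had the same sign under both vectors.

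**Figure D1:**
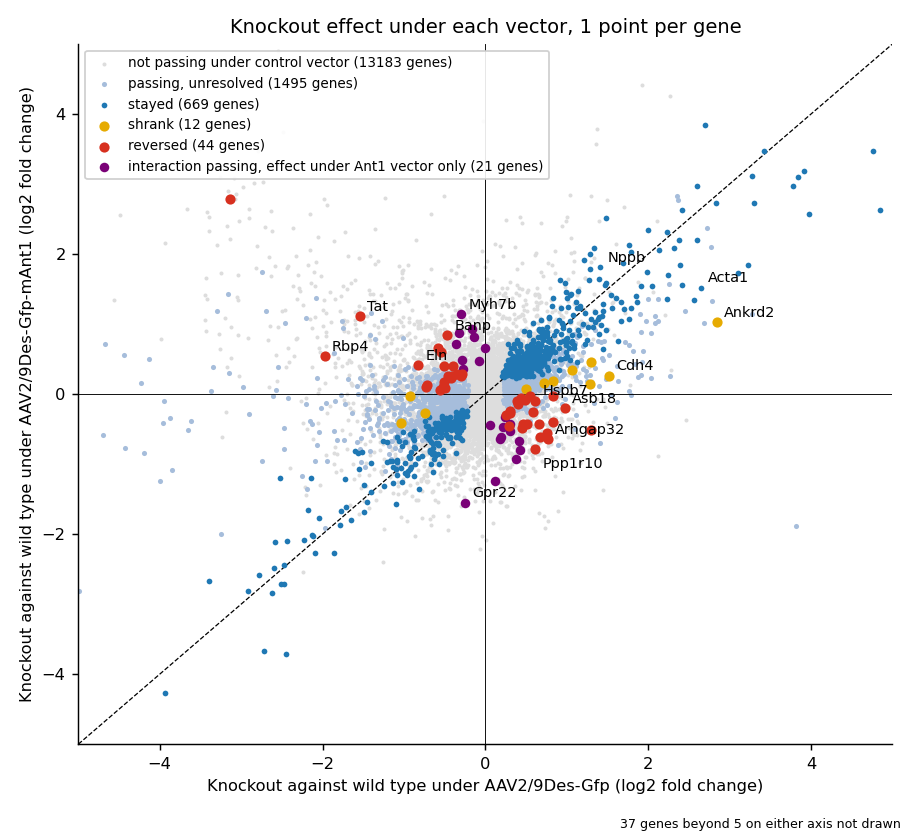
Log2 knockout effect under the control vector (x axis) against that under the Ant1 vector (y axis), 1 point per gene, coloured by class, with equality as a dashed line and 37 genes beyond the axes not drawn. Genes that stayed lie in the lower left and upper right quadrants, some of them off the line, such as Acta1 at 2.64 and 1.52, and the 44 that reversed lie in the upper left and lower right quadrants.

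A promoter sequence is shown for a gene of each fate, with the E-box letters CANNTG in capitals because E-boxes are bound by muscle transcription factors of the basic helix-loop-helix family. Each is the first 250 bases of a RefSeq promoter window of GRCm38.p6, 5′ to 3′ on the gene's strand. The windows were not matched to the gene positions used here, and that of Ankrd2 runs past its gene start at 42035917. Ankrd2 (shrank) is from chr19:42035777-42036026 on the plus strand, Asb18 (reversed) from chr1:90014667-90014916 on the minus strand, Acta1 (stayed) from chr8:123894776-123895025 on the minus strand, and Gpr22 (effect under the Ant1 vector alone) from chr12:31713884-31714133 on the minus strand.
Ankrd2: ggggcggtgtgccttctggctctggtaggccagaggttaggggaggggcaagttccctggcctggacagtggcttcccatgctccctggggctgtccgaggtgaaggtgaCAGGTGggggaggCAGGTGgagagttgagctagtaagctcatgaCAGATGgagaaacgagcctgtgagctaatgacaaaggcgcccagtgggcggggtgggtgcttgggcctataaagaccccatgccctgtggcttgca
Asb18: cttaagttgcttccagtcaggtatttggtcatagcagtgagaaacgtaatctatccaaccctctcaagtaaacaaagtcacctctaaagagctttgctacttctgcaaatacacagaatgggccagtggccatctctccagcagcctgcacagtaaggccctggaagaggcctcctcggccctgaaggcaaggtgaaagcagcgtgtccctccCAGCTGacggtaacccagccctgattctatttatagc
Acta1: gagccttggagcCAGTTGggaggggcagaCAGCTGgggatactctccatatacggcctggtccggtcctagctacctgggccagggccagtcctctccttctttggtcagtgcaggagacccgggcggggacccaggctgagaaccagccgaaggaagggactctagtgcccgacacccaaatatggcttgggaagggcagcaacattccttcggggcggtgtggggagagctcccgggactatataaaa
Gpr22: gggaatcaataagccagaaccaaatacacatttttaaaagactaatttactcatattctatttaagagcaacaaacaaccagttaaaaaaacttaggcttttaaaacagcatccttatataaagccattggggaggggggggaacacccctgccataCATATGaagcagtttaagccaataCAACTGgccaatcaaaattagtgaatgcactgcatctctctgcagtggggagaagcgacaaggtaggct
These windows held 3, 1, 2 and 2 E-boxes. An E-box occurred in 66% of 27025 promoter windows and in 59.1% of the 11537 matched among tested genes, against 6 of 9 matched genes that shrank, 22 of 36 that reversed and 62.3% of 507 that stayed. The classes were near the background, and CANNTG reads the same on both strands.

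Of the 12 effects that shrank, 8 were increases in the knockout and 4 were decreases. All 12 had knockout and wild type hearts without overlap under the control vector, against 26.7% of all tested genes. They were chosen by passing that effect, so the separation is no independent support. Ankrd2, a titin-binding ankyrin repeat protein that responds to stretch in muscle, measured 1.37, 1.52, 2.47 and 0.990 CPM in control-vector wild type hearts and 10.1, 11.0 and 13.3 CPM in knockout hearts. In Ant1-vector hearts it measured 1.41, 2.51 and 2.65 CPM in wild type and 7.14, 3.30, 4.53 and 3.35 CPM in knockout hearts. Knockout hearts were above wild type hearts under both vectors, with the Ant1-vector knockout hearts in between. The effect fell from 7.19-fold (log2 2.85 ± 0.28) to 2.04-fold (1.03 ± 0.29), with an interaction of -1.82 ± 0.40 (adjusted p = 0.0409).

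Diaph1, a formin that nucleates actin filaments, showed the smallest adjusted p among the shrinking effects after Slc25a4. It measured 93.1, 91.7, 91.7 and 112 CPM in control-vector wild type hearts and 163, 183 and 171 CPM in knockout hearts. With the Ant1 vector the values were 99.4, 98.3 and 104 CPM in wild type and 116, 117, 116 and 108 CPM in knockout hearts. The knockout effect was a log2 of 0.83 ± 0.08 under the control vector and 0.18 ± 0.08 under the Ant1 vector, where it did not pass (adjusted p = 0.161). Its interaction was -0.65 ± 0.11 (adjusted p = 0.0117).

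Trim72, which acts in repair of the muscle cell membrane, had a mean of 679 ± 56.2 CPM (SD, n = 4) in wild type and 962 ± 53.5 (n = 3) in knockout hearts under the control vector, and 720 ± 29.3 (n = 3) and 754 ± 27.3 (n = 4) under the Ant1 vector. The interaction was -0.44 ± 0.10 (adjusted p = 0.0409). Abcd3, an ATP-binding cassette transporter of the peroxisome membrane, measured 35.6, 35.5, 39.2 and 36.9 CPM in wild type against 77.8, 77.5 and 76.4 CPM in knockout hearts under the control vector. With the Ant1 vector it measured 38.1, 35.7 and 34.7 CPM in wild type and 51.9, 45.3, 48.3 and 38.2 CPM in knockout hearts. The knockout hearts given the Ant1 vector were all above their wild type hearts and below every knockout heart given the control vector (interaction -0.72 ± 0.16, adjusted p = 0.0468). Coa5, needed for assembly of cytochrome c oxidase, shrank from a log2 effect of 0.72 to 0.16 (interaction -0.56 ± 0.11, adjusted p = 0.0346).

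Cdh4, a cadherin of cell adhesion, shrank from 1.51 to 0.26 (adjusted p = 0.0276) and Srrm4, a splicing regulator best known from neurons, from 1.30 to 0.46 (adjusted p = 0.0342). Both were also higher in Ant1-vector than in control-vector wild type hearts, by log2 0.72 and 0.56, without passing (adjusted p = 0.0968 and 0.0655). Tmem180 shrank from 1.28 to 0.15. The 3 decreases beside Slc25a4 were Gsn, Cytl1 and Apba1. Gsn, which severs actin filaments and is abundant in fibroblasts, had means of 1046 ± 63.0 and 628 ± 58.4 CPM in wild type and knockout hearts under the control vector and 950.1 ± 55.3 and 791 ± 39.2 CPM under the Ant1 vector. Its interaction was 0.47 ± 0.10 (adjusted p = 0.0396), and it passed as lower in the knockout under both vectors. The summed level of 11 fibroblast markers was 3026 to 3219 CPM in control-vector wild type and 2064 to 2471 CPM in knockout hearts, and 2734 to 2874 and 2415 to 2746 CPM under the Ant1 vector. That sum includes Gsn, and its part in the Gsn result was not tested. Cytl1, a secreted protein, shrank from -1.04 to -0.41, and Apba1, an adaptor of vesicle transport, from -0.93 to -0.02, each with an adjusted p of 0.0396.

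**Figure D2:**
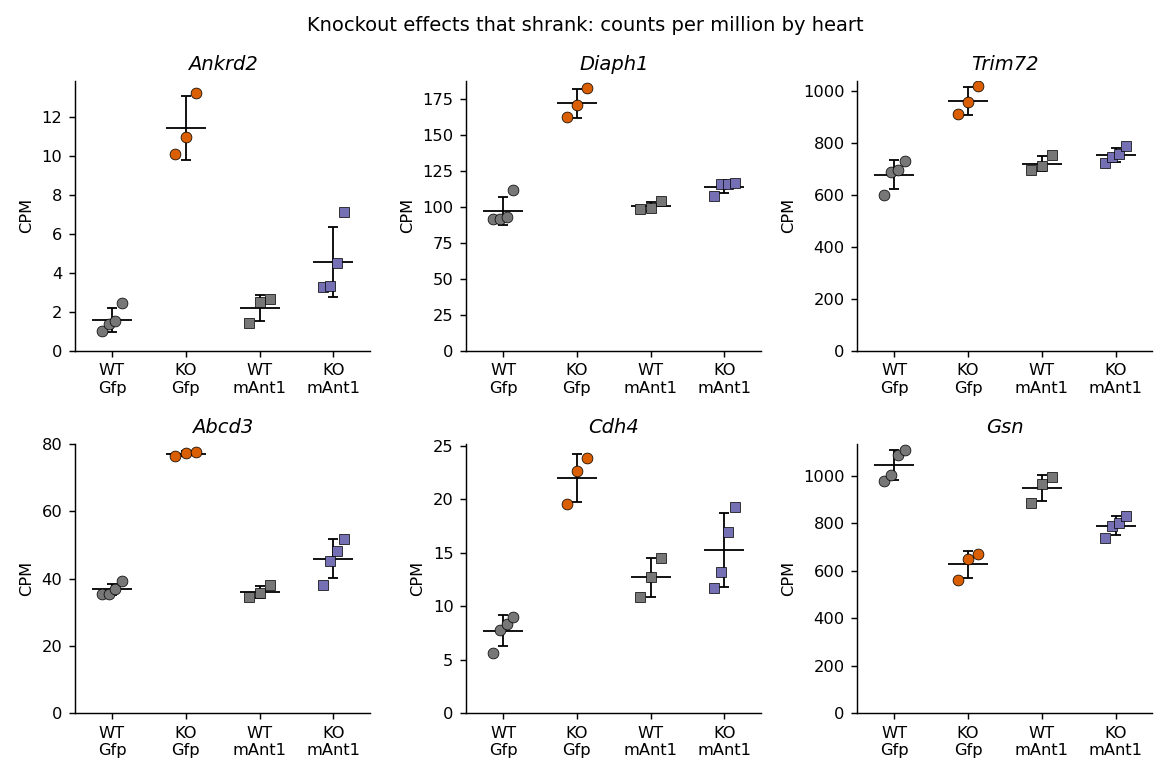
CPM of 6 genes whose knockout effect shrank, 1 point per heart in each of the 4 groups (WT wild type, KO knockout), with group means and SD as bars. In Ankrd2, Diaph1, Trim72, Abcd3 and Cdh4 the control-vector knockout hearts are the highest of the 4 groups, and in Gsn they are the lowest.

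Diaph1 and Slc25a4 passed in all 14 fits that each left out 1 heart, whereas Ankrd2 and Trim72 passed in 4, Gsn in 5, Abcd3 in 1, Cdh4 and Tmem180 in 9, Coa5 in 8, Srrm4 in 6 and Cytl1 and Apba1 in 3 of them. Adjusted p rose to at most 0.135 for these genes in such fits, and each kept its sign. With library table as a covariate the calls of 5 of the 12 ended: Ankrd2 (-0.97, adjusted p = 0.0692), Diaph1 (-0.61, 0.0535), Tmem180 (-1.05, 0.118), Cytl1 (0.47, 0.109) and Apba1 (0.64, 0.218).

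Reversal took different forms. Of the 44 genes, 14 passed with opposite signs under both vectors, and 30 passed under the control vector and lay on the other side of 0, without passing, under the Ant1 vector. Those 14 were the only genes of 15403 that passed with opposite signs. They are all named here, a choice made after their values were seen, and 11 of them had separate knockout and wild type hearts under both vectors, against 8.24% of tested genes (26.7% under the control vector and 20.0% under the Ant1 vector). Because these genes were chosen by passing under both vectors, that separation is no independent support.

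Ppp1r10, which targets protein phosphatase 1 to the nucleus, measured 54.6, 54.9, 55.3 and 47.8 CPM in wild type hearts and 86.1, 77.1 and 80.1 CPM in knockout hearts under the control vector. Its levels under the Ant1 vector were 84.2, 66.9 and 78.8 CPM in wild type hearts and 30.1, 50.3, 49.0 and 49.0 CPM in knockout hearts. The groups exchanged places: knockout hearts were above wild type hearts with the control vector and below them with the Ant1 vector. The effect moved from 1.53-fold higher (log2 0.61 ± 0.14) to -0.78 ± 0.14, with an interaction of -1.39 ± 0.20 (adjusted p = 0.00488). Heart 20, at 30.1 CPM, lay apart in its group, and without it the interaction passed as well. Ppp1r10 lies at chr17:35916512-35932283.

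Arhgap32 measured 17.8, 13.4, 16.9 and 17.5 CPM in wild type and 29.8, 28.01 and 26.0 CPM in knockout hearts under the control vector. Under the Ant1 vector the order was opposite, with 30.0, 26.8 and 23.1 CPM in wild type and 15.8, 15.6, 14.9 and 21.3 CPM in knockout hearts. The log2 effect moved from 0.77 ± 0.17 to -0.65 ± 0.17 (interaction -1.42 ± 0.24, adjusted p = 0.0117). Banp, a nuclear matrix protein that binds DNA, moved the other way. It measured 44.3, 53.9, 46.0 and 31.4 CPM in wild type and 30.3, 35.2 and 29.8 CPM in knockout hearts under the control vector, where wild type heart 70 lay within the knockout range. In Ant1-vector hearts it measured 24.6, 26.2 and 22.5 CPM in wild type and 46.9, 45.9, 39.8 and 42.7 CPM in knockout hearts, with no overlap. The interaction was 1.31 ± 0.21 (adjusted p = 0.0117). Banp and Nrp1, a co-receptor for vascular endothelial growth factor and semaphorins, also differed between vectors in wild type hearts, by log2 -0.84 and 0.49 (adjusted p = 0.0401 for both).

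The other reversals with both effects passing were smaller in log2 interaction than those of Ppp1r10 and Arhgap32. Prkaa2, the alpha-2 catalytic subunit of the AMP-activated kinase, had means of 131 ± 9.66 CPM (SD, n = 4) and 161 ± 6.64 (n = 3) in wild type and knockout hearts under the control vector and 152 ± 3.33 (n = 3) and 129 ± 3.08 (n = 4) under the Ant1 vector, without overlap in either (interaction -0.54 ± 0.10, adjusted p = 0.0229). Pdp2, a phosphatase that activates pyruvate dehydrogenase, moved from 0.47 to -0.43 (adjusted p = 0.0396) and Slc38a9, a lysosomal amino acid sensor upstream of mTORC1, from 0.45 to -0.48 (adjusted p = 0.0334). Btnl9 of the butyrophilin family moved from 0.51 to -0.42 (adjusted p = 0.013), Tmed5 of the early secretory pathway from 0.28 to -0.45 (adjusted p = 0.0138), Arl2bp from 0.30 to -0.27 (adjusted p = 0.0319) and Nrp1 from 0.26 to -0.30 (adjusted p = 0.0396).

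In the opposite direction, Baiap2, a regulator of the actin cytoskeleton, moved from -0.54 to 0.60 and Mall, a membrane raft protein, from -0.58 to 0.66 (adjusted p = 0.0396 for both interactions). Rnf111, a ubiquitin ligase of the TGF-beta pathway, moved from -0.29 to 0.28 (adjusted p = 0.013) and Ggnbp1 from -0.40 to 0.39 (adjusted p = 0.0355). Each of these 4 genes had separate knockout and wild type hearts under the control vector, and Mall overlapped under the Ant1 vector.

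In the other 30 reversals the Ant1-vector effect had the opposite sign and did not pass, with log2 sizes from 0.06 for Fyn to 1.11 for Tat among the genes named here. Asb18, a substrate receptor of a ubiquitin ligase family, had the smallest adjusted p of the interaction after Slc25a4. It measured 30.3, 25.2, 22.0 and 30.2 CPM in wild type and 56.8, 48.7 and 52.7 CPM in knockout hearts under the control vector. With the Ant1 vector it measured 37.8, 33.5 and 33.5 CPM in wild type and 27.7, 26.7, 28.7 and 37.7 CPM in knockout hearts. The groups were separate under the control vector and overlapped under the Ant1 vector, the log2 effect moving from 0.97 ± 0.12 to -0.20 ± 0.12 (interaction -1.18 ± 0.17, adjusted p = 0.00373).

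Hspb7, a small heat shock protein abundant in heart and skeletal muscle, measured 3421, 3235, 3092 and 3650 CPM in wild type and 5146, 5572 and 4672 CPM in knockout hearts under the control vector. With the Ant1 vector it measured 4174, 4105 and 3586 CPM in wild type and 3727, 3649, 4002 and 3427 CPM in knockout hearts. All 3 control-vector knockout hearts were above the other 11 hearts (interaction -0.71 ± 0.12, adjusted p = 0.0117). Tefm, the elongation factor of mitochondrial transcription, moved from 0.49 to -0.09 and Trem2, a receptor of macrophages, from 0.76 to -0.55 (adjusted p = 0.0396 for both). The summed level of 12 macrophage markers was 272 to 394, 233 to 321, 283 to 367 and 238 to 298 CPM in the 4 groups in the order in which they were introduced.

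Eln, the elastin gene, measured 46.1, 43.9, 52.3 and 57.6 CPM in wild type and 34.5, 24.0 and 26.0 CPM in knockout hearts under the control vector. Its levels under the Ant1 vector were 30.3, 36.4 and 34.8 CPM in wild type and 51.1, 44.0, 47.0 and 38.8 CPM in knockout hearts. Knockout hearts were lower with the control vector and higher with the Ant1 vector, without overlap in either, although the second difference did not pass (log2 0.41, adjusted p = 0.0726). The interaction was 1.24 ± 0.20 (adjusted p = 0.0117). Id1, a target of BMP signals that blocks basic helix-loop-helix factors, moved from -0.42 to 0.23 (adjusted p = 0.013), and Fyn, a Src family kinase, from -0.56 to 0.06 (adjusted p = 0.0117). For Id1 the vector difference was in wild type hearts (log2 -0.54, adjusted p = 0.0185) and not detected in knockout hearts (0.11, adjusted p = 0.448).

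Tat and Rbp4, genes of amino acid breakdown and retinol transport that are abundant in liver, had the largest positive interactions after Slc25a4 among passing genes of at least 5 CPM in a group (2.65 ± 0.57 and 2.51 ± 0.54, adjusted p = 0.0396 for both). Tat measured 12.5, 6.87, 5.35 and 14.3 CPM in control-vector wild type hearts and 1.81 to 5.78 CPM in the other 10. Rbp4 measured 21.9, 5.03, 8.03 and 8.79 CPM in the same wild type hearts and 2.71, 3.38 and 2.25 CPM in control-vector knockout hearts. With the Ant1 vector it measured 4.35, 4.67 and 5.26 CPM in wild type and 3.15, 7.36, 7.85 and 9.23 CPM in knockout hearts. Liver marker sums in the control-vector wild type hearts were 384, 76.8, 109.5 and 148 CPM, and their part in both results was not tested. Rbp4 had an interaction of 1.02 (adjusted p = 0.3) with library table as a covariate.

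**Figure D3:**
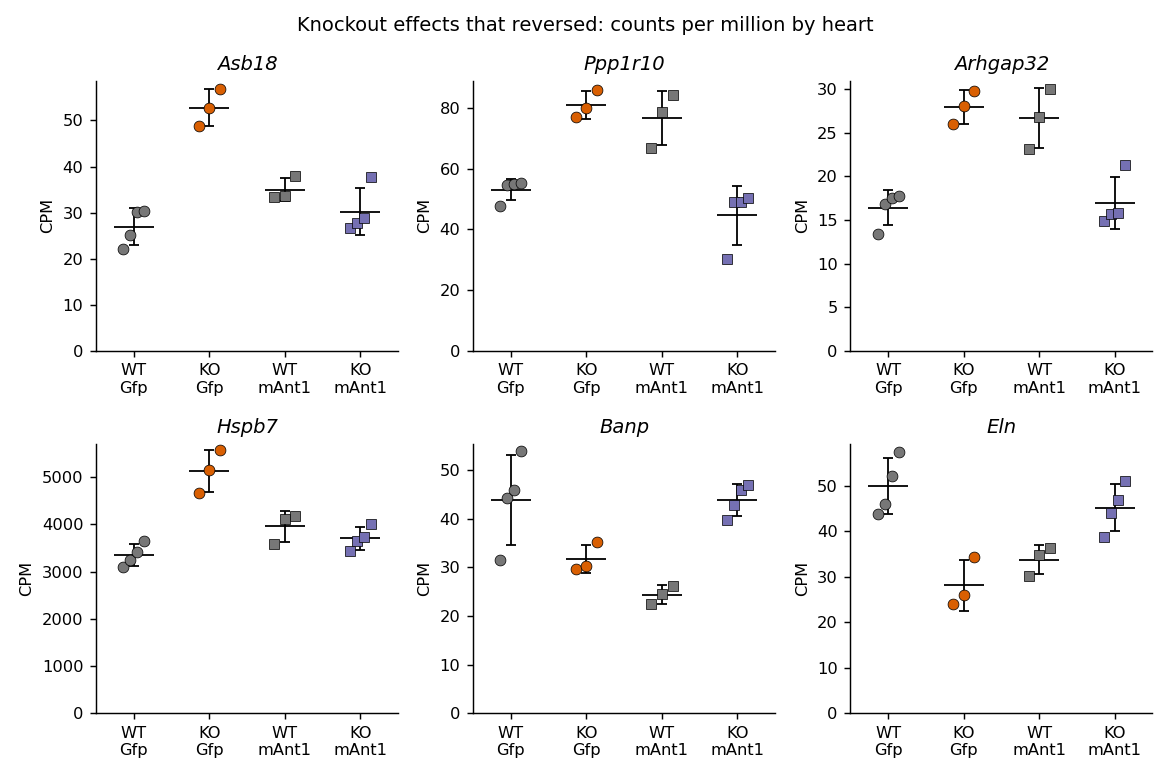
CPM of 6 genes whose knockout effect reversed, 1 point per heart in each of the 4 groups (WT wild type, KO knockout), with group means and SD as bars. For Ppp1r10 and Arhgap32 the knockout group is above wild type under the control vector and below it under the Ant1 vector, and for Banp and Eln the order is opposite.

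Of the reversed genes named, Asb18, Ppp1r10, Arhgap32, Banp, Eln, Fyn, Hspb7 and 2310030G06Rik passed in each of the 14 fits without 1 heart. Id1, Btnl9, Rnf111 and Tmed5 passed in 13, Prkaa2 in 10, Arl2bp in 9, Slc38a9 in 7, Ggnbp1 in 6, Rbp4 in 5, Pdp2, Nrp1, Tat, Tefm and Trem2 in 4 and Baiap2 and Mall in 2 of them, each with its sign kept and an adjusted p of at most 0.137. With library table as a covariate the calls of Tmed5 (-0.54, adjusted p = 0.434), Slc38a9 (-0.53, 0.521), Prkaa2 (-0.46, 0.1), Tefm (-0.48, 0.166), Trem2 (-1.29, 0.101) and Rbp4 ended.

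In 21 of the 77 genes the knockout effect passed under the Ant1 vector and not under the control vector. Myh7b, a slow myosin heavy chain gene that hosts a muscle microRNA, measured 75.0, 87.9, 72.5 and 70.3 CPM in wild type and 45.0, 71.3 and 70.2 CPM in knockout hearts under the control vector, which overlapped. In Ant1-vector hearts it measured 63.3, 49.7 and 55.3 CPM in wild type and 134, 138, 126 and 97.0 CPM in knockout hearts, a 2.21-fold increase (interaction 1.44 ± 0.26, adjusted p = 0.0136). Gpr22, an orphan receptor of heart and brain, measured 38.5, 31.7, 27.6 and 34.9 CPM against 30.2, 22.7 and 30.9 CPM with the control vector, and 41.4, 40.3 and 37.0 CPM against 12.8, 11.6, 10.5 and 18.6 CPM with the Ant1 vector. Its 4 Ant1-vector knockout hearts were below the other 10 (interaction -1.30 ± 0.28, adjusted p = 0.0397).

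Mpv17l, a relative of the mitochondrial protein Mpv17, was likewise lower in Ant1-vector knockout hearts, at 4.96 ± 0.51 CPM (SD, n = 4) against 11.7 ± 0.20 (n = 3) in wild type, and 9.99 ± 1.33 (n = 3) against 9.20 ± 2.20 (n = 4) with the control vector (interaction -1.36, adjusted p = 0.0355). Tet1, a DNA demethylase, moved from 0.38 to -0.92 (adjusted p = 0.0396). Sfrp2, a secreted Wnt antagonist, moved from -0.16 to 0.93 (adjusted p = 0.0476) and Adam19, a membrane protease needed for heart valve formation, from -0.33 to 0.87 (adjusted p = 0.0498). Myh7b passed in 13 of the 14 fits that left out a heart, Mpv17l in 4, Tet1 and Sfrp2 in 3 and Gpr22 and Adam19 in 2, with an adjusted p of at most 0.137. Sfrp2 did not pass with library table as a covariate (1.05, adjusted p = 0.0672).

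The interaction genes were mostly those that differed between vectors in knockout hearts. The vector effect passed for 842 genes in knockout hearts (5.47%) and for 18 in wild type hearts (0.117%). Of the 77 interaction genes it passed in knockout hearts alone for 58, in wild type hearts alone for 6, in neither for 13 and in both for 0. In 75 of them wild type and knockout hearts moved in opposite directions between vectors, and in 56 the knockout part was the larger. These vector effects are the parts of the interaction and no independent support, and because no library table held both vectors, vector and table cannot be told apart in them.

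Knockout effects that stayed numbered 669, with 462 higher and 207 lower in the knockout. Of these, 617 had separate groups under both vectors, against 8.24% of all tested genes. The class requires both effects to pass, so this separation is largely set by the choice of genes. For 411 (61.4%) the 95% interval of the interaction lay within a 1.5-fold change, against 39.2% of all tested genes. Stayed genes also needed an interaction that did not pass, so this share is no test of equal effects. The stayed class included cardiac strain genes. Nppb, which encodes the natriuretic peptide released by stretched ventricle, measured 628, 597, 389 and 328 CPM in wild type and 962, 1397 and 1512 CPM in knockout hearts under the control vector. With the Ant1 vector it measured 407, 466 and 512 CPM in wild type and 2242, 1676, 1855 and 711 CPM in knockout hearts. Knockout hearts were above wild type hearts under both vectors, by 2.66-fold and 3.51-fold (interaction 0.40, 95% interval -0.39 to 1.19, adjusted p = 0.675).

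Acta1, the skeletal muscle actin that returns in strained heart muscle, measured 90.8, 158, 133 and 177.3 CPM in wild type and 673, 979 and 972 CPM in knockout hearts under the control vector. It measured 169.8, 199 and 201 CPM in wild type and 790.5, 459, 608 and 321 CPM in knockout hearts under the Ant1 vector. The increase was 6.25-fold under the control vector and 2.87-fold under the Ant1 vector, with no overlap in either (interaction -1.12, 95% interval -1.97 to -0.28, adjusted p = 0.207). Ankrd1, a titin-binding relative of Ankrd2, was 2.08-fold and 1.80-fold higher (interval -0.70 to 0.29). Heart 27 had the lowest Nppb and Acta1 of the Ant1-vector knockout hearts. Its summed Slc25a4 level of 174 CPM was also the lowest, but its 8 libraries ranged from 72.1 to 270.2 CPM, with 96.1 to 270.2 CPM in one library table and 72.1 to 144.5 CPM in another. With library table as a covariate, in a limma fit on single libraries, both calls ended. The Nppb effect was then larger under the Ant1 vector (interaction 0.92, adjusted p = 0.00484) and the Acta1 effect smaller (-0.76, adjusted p = 0.0289). Among hearts whose libraries shared tables, with 1 knockout heart per vector, the interaction was 1.433 for Nppb and -0.351 for Acta1.

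Other stayed genes covered conduction, contraction and fuel use. Scn4b, a sodium channel subunit, had log2 effects of 1.63 and 0.76 (interaction -0.87 ± 0.23, adjusted p = 0.0899); without wild type heart 25 its effect shrank instead (-1.06, adjusted p = 0.0256). Hspb6, a small heat shock protein of muscle, had effects of 0.91 and 0.34 (adjusted p of the interaction 0.0628), and left the class in 5 of 14 fits without a heart, shrinking in that without knockout heart 20. Myom3, an M-band protein, had effects of 3.10 and 1.74 at levels of 0.268 to 3.47 CPM. Ckm, the muscle creatine kinase, had effects of 0.31 and 0.66, and Pdhb, a pyruvate dehydrogenase subunit, of 0.40 and 0.72. Ldha, lactate dehydrogenase A, was lower by log2 -0.70 and -0.32, Corin, the protease that activates natriuretic peptides, by -0.62 and -0.41, and Pink1, a kinase of mitophagy, by -0.54 and -0.32. Mtfp1 of mitochondrial fission was higher by 0.43 and 0.30, and Letm1 of mitochondrial ion exchange by 0.56 and 0.38. Leaving out a heart moved Ckm out of the class in 6, Ldha in 5, Letm1 in 2 and Mtfp1 in 1 of 14 fits. With library table as a covariate Scn4b shrank (interaction -0.81, adjusted p = 0.000454), Pdhb grew (0.40, adjusted p = 0.0153), and the Ant1-vector effects of Ldha and Letm1 no longer passed.

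**Figure D4:**
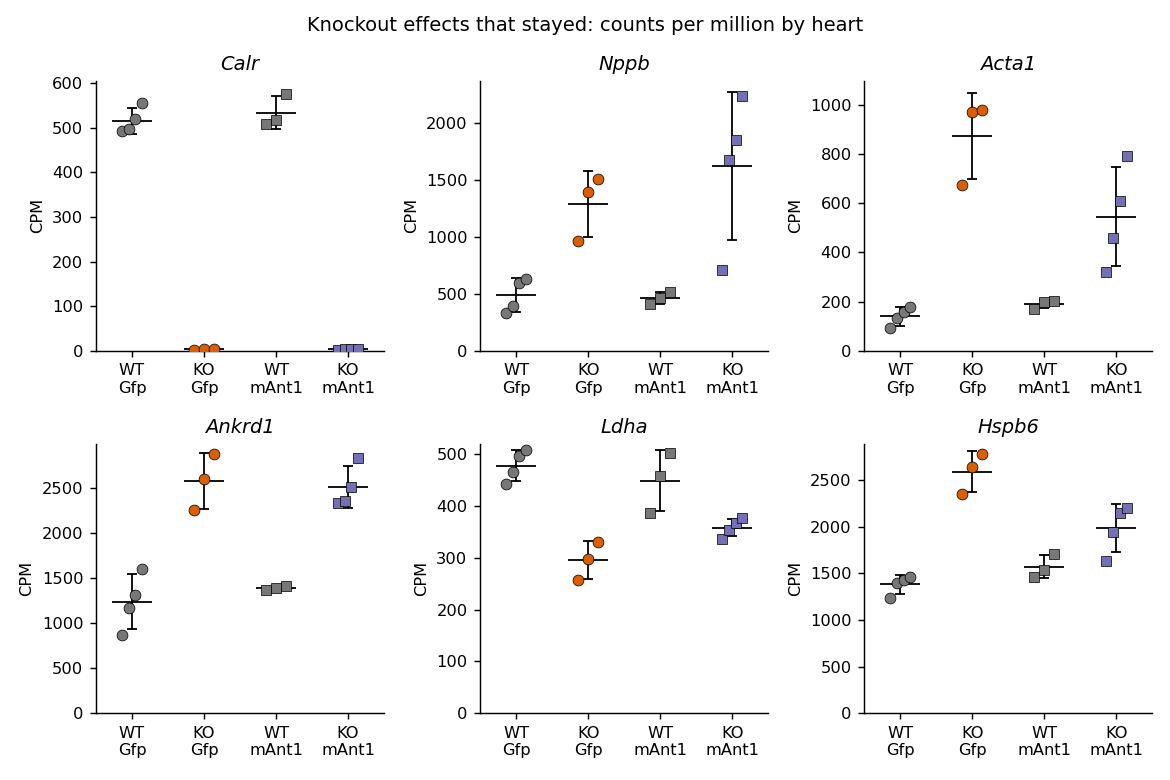
CPM of 6 genes whose knockout effect stayed, 1 point per heart in each of the 4 groups (WT wild type, KO knockout), with group means and SD as bars. Knockout hearts are separate from wild type hearts under both vectors in Calr, Nppb, Acta1, Ankrd1 and Ldha, and overlap under the Ant1 vector in Hspb6.

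The largest stayed effects were not those of heart failure genes, and many lay on chromosome 8, which holds Slc25a4. Calr, the calreticulin gene, a calcium-binding chaperone of the endoplasmic reticulum at chr8:84842088-84846931, measured 556, 492, 497 and 520 CPM in control-vector wild type hearts and 2.52, 3.61 and 2.78 CPM in knockout hearts. Its levels under the Ant1 vector were 508, 519 and 577 CPM in wild type and 2.83, 4.58, 4.16 and 2.56 CPM in knockout hearts. Its log2 effects of -7.44 ± 0.20 and -7.26 ± 0.17 differed by 0.18 (95% interval -0.28 to 0.63, adjusted p = 0.766). Zswim4 on chromosome 8 showed effects of -6.76 and -6.59 with knockout levels of 0.0661 to 0.220 CPM. Ubxn8, on the same chromosome, had levels of 10.3 to 12.4 CPM in wild type and 0 to 0.0980 CPM in knockout hearts.

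Il15, an interleukin gene on chromosome 8, was lower by log2 -2.62 and -2.85. Sycp1 on chromosome 3, a gene of meiosis, was higher by 7.78 and 7.35, at 15.5 to 22.4 CPM in the 7 knockout hearts and 0 to 0.159 CPM in the 7 wild type hearts. Arhgap9 (3.28 and 3.11), Tmem116 (2.83 and 2.73) and Nos1, the neuronal nitric oxide synthase (3.97 and 2.57), were higher in the knockout under both vectors, and Cenpf, a kinetochore gene, was lower (-3.39 and -2.67). Of 748 tested genes on chromosome 8, 63 stayed (8.42%), against 606 of 14655 elsewhere (4.14%). Among stayed effects of at least 4-fold under both vectors, 12 were on chromosome 8, 11 of them lower in the knockout, and 33 were elsewhere or had no position, 13 of them lower. Within 20 Mb of Slc25a4, a window chosen after the values were seen, 18 of 107 other genes stayed (16.8%). The interaction passed for 0 of these 107 and for 7 of 640 genes farther away on chromosome 8. It passed for 69 of 14655 genes elsewhere or without a position, and for 0.500% of all tested genes, so the 0 does not set the window apart.

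Several stress and load genes changed in 1 comparison without a passing interaction. Gdf15, a circulating signal of mitochondrial and integrated stress, measured 1.995, 6.395, 4.23 and 3.87 CPM in wild type and 4.97, 5.75 and 5.88 CPM in knockout hearts under the control vector. In Ant1-vector hearts it measured 3.41, 4.10 and 5.65 CPM in wild type and 42.9, 24.7, 30.6 and 5.29 CPM in knockout hearts. In 3 of the 4 Ant1-vector knockout hearts it was above every other heart, and heart 27 lay with the wild type. The Ant1-vector effect passed (log2 2.54 ± 0.49, adjusted p = 0.00214) and the interaction did not (2.11 ± 0.68, adjusted p = 0.145). The interaction passed without heart 27 (2.46, adjusted p = 0.0157) and in the limma fit on single libraries with library table as a covariate (2.53, adjusted p = 0.000189). In hearts that shared tables it was 3.025.

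Atf4, the transcription factor of the integrated stress response, had effects of 0.04 and 0.38, the latter passing (adjusted p = 0.042), and Ddit3, its target, of -0.01 and 0.48, neither passing. The interactions of Atf4 and Ddit3 passed with library table as a covariate (0.59 and 0.80, adjusted p = 0.0015 and 0.000672) and not otherwise. Nppa, the atrial natriuretic peptide gene, passed in neither comparison (log2 -0.01 and 0.10, adjusted p = 0.986 and 0.845), nor did the inducible heat shock genes Hspa1a and Hspa1b. Fgf21 was below the count minimum.

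Agt, which encodes angiotensinogen, measured 5.66, 4.52, 5.47 and 8.26 CPM in wild type and 30.9, 16.1 and 18.8 CPM in knockout hearts under the control vector. With the Ant1 vector it measured 4.35, 4.42 and 5.03 CPM in wild type and 5.46, 5.09, 5.22 and 5.99 CPM in knockout hearts, close to wild type. The control-vector effect of 1.87 ± 0.30 passed (adjusted p = 0.000251), the Ant1-vector effect of 0.24 did not, and the interaction of -1.63 ± 0.44 did not (adjusted p = 0.0917). The interaction passed in the limma fit on single libraries with library table as a covariate (-2.05, adjusted p = 3.35e-05). In hearts that shared tables it was -2.327. Hk1, a hexokinase (0.59 and 0.10), Tcap, the titin cap (0.61 and -0.16), and Xirp2, a protein of the intercalated disc (0.57 and -0.24), showed the same order, with interaction adjusted p of 0.0667, 0.0785 and 0.0544. Npr1, the receptor for natriuretic peptides, went from -0.46 to 0.17 (adjusted p = 0.0641).

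Among lists of genes that serve mitochondria, and among tRNA synthetases, calls were mostly increases under both vectors. Over all tested genes 8.19% rose and 6.23% fell under the control vector, 5.37% rose and 4.53% fell under the Ant1 vector, and 4.34% stayed, the shares against which each list count is read. Of 72 tested mitochondrial ribosomal proteins, 25 rose under the control vector and 14 under the Ant1 vector, 12 stayed, 13 were unresolved and 0 had a passing interaction, while 1 had a positive and 4 a negative one at an unadjusted p of 0.05, against 7.71% and 6.95% of all genes. Their median log2 effect was 0.245 and 0.154 under the 2 vectors, against -0.0262 and 0.0112 over all genes. Mrps23 (0.70 and 0.46), Mrpl43 (0.60 and 0.38) and Mrpl55 (0.51 and 0.55) stayed, and Mrpl19 (0.54 and 0.03) was unresolved. Of 26 import, chaperone and protease genes, 14 rose under the control vector and 8 under the Ant1 vector, all 8 of which stayed, among them the import channel gene Tomm40 (0.37 and 0.42) and Grpel1 (0.62 and 0.51). The import receptor Tomm70a went from 0.50 to -0.08 (interaction adjusted p = 0.0899). Of 36 tRNA synthetases, cytosolic and mitochondrial together, 14 rose and 1 fell under the control vector. Under the Ant1 vector 9 rose and 1 fell, and 8 stayed. Among respiratory subunits, 3 of 31 of complex I and 1 of 37 of complexes II to V rose under the control vector, and 1 of each under the Ant1 vector.

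Metabolic and contractile lists were mixed, and several counts were near the shares over all genes (8.19% higher and 6.23% lower under the control vector, 5.37% and 4.53% under the Ant1 vector). In the tricarboxylic acid cycle and pyruvate list 8 of 26 rose under the control vector, and 5 rose and 1 fell under the Ant1 vector, with Pdp2 reversed. In the glucose list 7 of 23 rose and 1 fell under the control vector, and 7 rose and 3 fell under the Ant1 vector. The glycolytic genes Tpi1 (0.42 and 0.41) and Pgam2 (0.52 and 0.49) stayed. Of 34 genes of fatty acid and ketone use, 5 rose under the control vector, and 3 rose and 2 fell under the Ant1 vector. In the calcium list 2 of 29 rose and 3 fell under the control vector and 2 rose and 7 fell under the Ant1 vector. Ryr2, the calcium release channel, had effects of -0.03 and -0.65, the latter passing (adjusted p = 0.00472), with an interaction that did not (adjusted p = 0.141). Of 20 endoplasmic reticulum chaperones, 10 fell under the control vector and 5 under the Ant1 vector, and 4 stayed, of which Calr is on chromosome 8.

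In matrix, growth factor and interferon lists, calls under the control vector were mostly decreases, where 6.23% of all genes fell and 8.19% rose (4.53% and 5.37% under the Ant1 vector). Over all genes 52.4% of interactions were positive, and 7.71% were positive at an unadjusted p of 0.05. Of 39 collagen and matrix genes, 7 fell and 3 rose under the control vector, and 0 fell and 3 rose under the Ant1 vector. Their median interaction was 0.244, against 0.0181 over all genes, 31 of 39 were positive, and Eln passed. Fbln1, a matrix glycoprotein, went from -0.76 to -0.06 (interaction adjusted p = 0.0768). Of 29 TGF-beta and BMP response genes, 7 fell under the control vector and 1 under the Ant1 vector, with a median interaction of 0.162 and Id1 passing. Smad7, an inhibitor of TGF-beta signals, went from -0.63 to -0.12 (adjusted p = 0.133), and Ctgf, a matricellular target of the pathway, from -1.24 to 0.25 (adjusted p = 0.0569). Of 41 interferon response genes, 5 fell under the control vector and 0 under the Ant1 vector, with a median interaction of 0.271, 34 of 41 positive and 0 passing (7 at an unadjusted p of 0.05, all positive).

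Of 11 fibroblast markers, 6 fell under the control vector and 1 under the Ant1 vector, against 6.23% and 4.53% of all genes. Their medians were -0.424 and -0.0128. The markers include collagen genes, so they may share members with the matrix list and are no separate observation. Liver and adipocyte markers had a positive interaction at an unadjusted p of 0.05 for 8 of 9 and 6 of 10 genes, against 7.71% of all genes. Their part in the results of the lists was not tested. Of 20 heat shock genes, against 8.19% of all genes higher under the control vector and 5.37% under the Ant1 vector, 6 rose under the control vector and 4 under the Ant1 vector, with Hspb7 reversed. Of 21 strain and fetal genes 9 rose and 2 fell under the control vector and 5 rose and 3 fell under the Ant1 vector, with Ankrd2 among the effects that shrank.

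**Figure D5:**
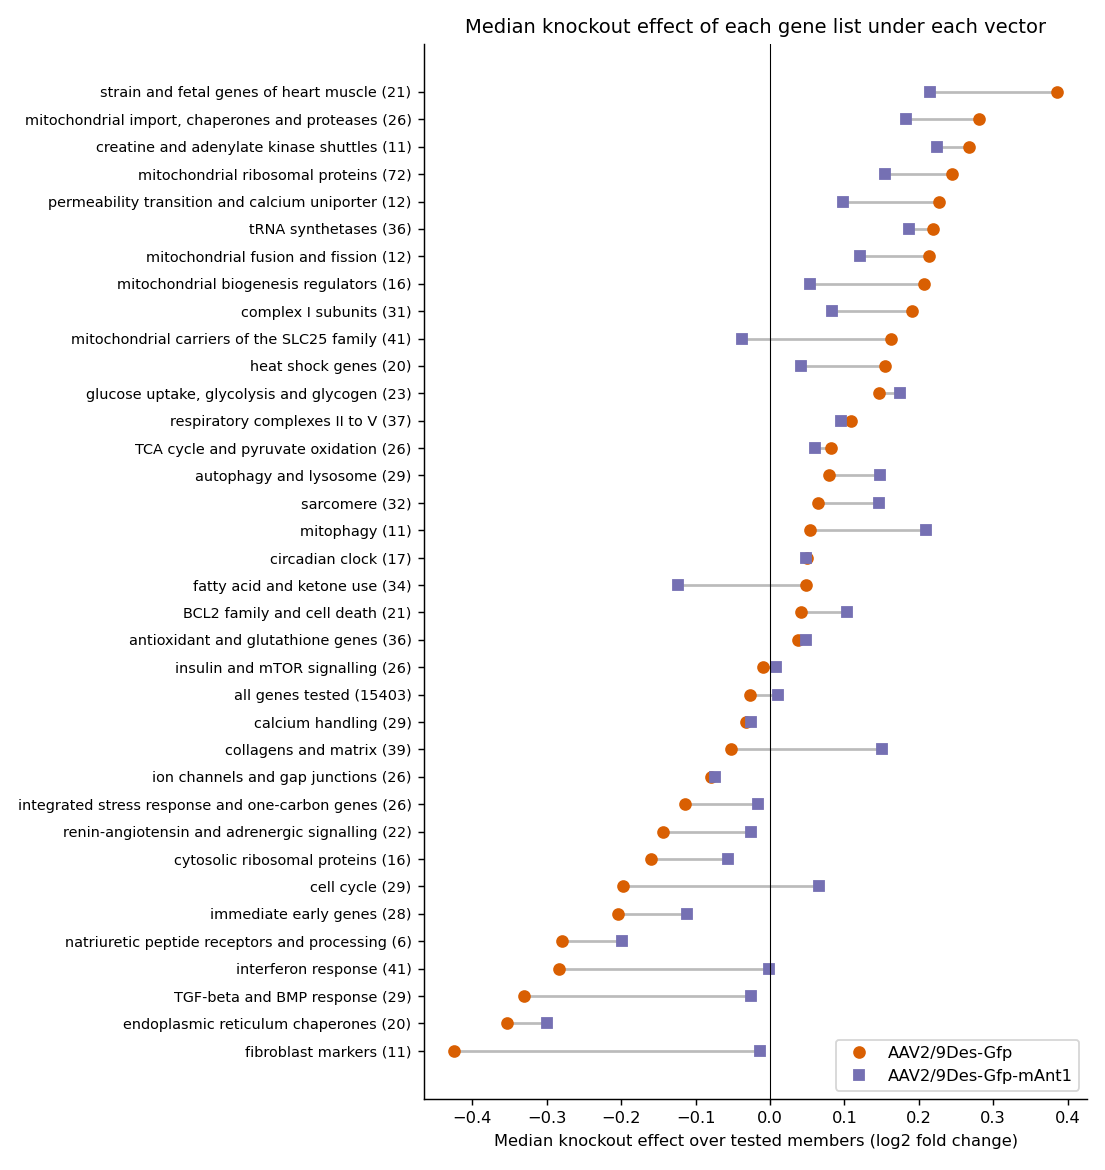
Median log2 knockout effect over the tested members of each gene list (number in brackets) under the control vector (circles) and the Ant1 vector (squares), with all genes tested as the background row. The mitochondrial ribosomal list is at 0.245 and 0.154, and the collagen and matrix list at -0.0522 and 0.151.

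Leaving out 1 heart changed the number of interaction genes from 77 to between 15 (without Ant1-vector wild type heart 81) and 172 (without Ant1-vector knockout heart 27). All 77 kept their sign in the 14 such fits, and 12 passed in each of them: Slc25a4, Diaph1, Asb18, Ppp1r10, Arhgap32, Hspb7, Banp, Eln, Fyn, 2310030G06Rik, Cse1l and Ttc30b, of which 10 also passed with library table as a covariate. In the hearts that shared tables, with 1 knockout heart per vector whose spread is taken from the other groups (23, 24, 25 and 35 with the control vector and 80, 81, 83 and 20 with the Ant1 vector) 2 interactions passed, Asb18 (-1.48, adjusted p = 0.0319) and Ppp1r10 (-2.004, adjusted p = 0.011), and all 77 kept their sign. The knockout heart with the Ant1 vector in that fit was heart 20, which had the outlying Ppp1r10 level of 30.1 CPM.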

How the data were processed

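The authors deposited raw counts of reads per amplicon in 14 tables of 8 libraries each, from Ion AmpliSeq sequencing of total heart RNA, per the labels' protocols and the file headers. The submitters' processing notes name mm10 (GRCm38) as the build. The sources used here name no aligner or counter. The deposited counts of each heart's libraries were summed, giving 16827518 to 53106670 reads per heart (2893780 to 8531273 per library), and 27 gene symbols turned into dates were restored. Libraries 80a and 80b, whose labels give no clear group, were left out of the main fit. An alternative fit added them to Ant1-vector wild type heart 80, and 73 interactions passed, 71 of them among the 77.

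The 4 groups were fitted with the other labelled hearts in 1 model of 7 groups with edgeR 4.0.16 in R 4.3.3 (TMM scaling with factors of 0.9593 to 1.058, filterByExpr, quasi-likelihood F-test, Benjamini-Hochberg adjustment over 15403 genes, threshold 0.05). Those other hearts were of ANT1 -/- ND6 P25L mice, and they entered the filter and the estimate of spread. Levels are CPM of the TMM-scaled library. The heart was the replicate, and p-values measure the spread between these hearts. Alternatives used DESeq2 1.42.0, limma 3.58.1 on single libraries with library table as a covariate and heart as a random block, other filters, scalings and libraries, and each heart left out in turn. In the limma fit the within-heart correlation was 0.176. Libraries of a heart thus counted in large part as separate replicates, and its p-values are not measures of the spread between hearts alone.

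Genes named were 15 fixed heart, stress and control genes, those with the largest passing interactions of each sign and the smallest interaction p per class at 5 CPM or more, the largest effects that stayed, and up to 4 per list. The groups, gene lists and marker lists were chosen with earlier results of these data known. Arhgap9, Tmem116, Scn4b, Hspb6, Myom3, Pdhb, Ckm, Agt, Npr1, Tcap, the stayed members named within lists and the complete class of genes with opposite passing effects were partly chosen after their values were seen. Promoter sequences are RefSeq windows of GRCm38.p6.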

Additional observations from a re-analysis of the deposited data

Results flagged for a closer look

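The knockout effect differed between the vectors by a test of the difference for 77 genes, of which 42 are named here with their log2 interaction (Ant1 vector minus control vector) from edgeR's quasi-likelihood test. Among effects that shrank it was 7.75 for Slc25a4, -1.82 for Ankrd2, -0.65 for Diaph1, -0.44 for Trim72, -0.56 for Coa5 and -0.72 for Abcd3. It was 0.47 for Gsn, 0.63 for Cytl1, -0.84 for Srrm4, -1.25 for Cdh4, 0.90 for Apba1 and -1.14 for Tmem180.

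Among effects that were higher under the control vector and lower under the Ant1 vector, it was -1.42 for Arhgap32, -1.39 for Ppp1r10, -0.93 for Btnl9, -0.92 for Slc38a9, -0.90 for Pdp2, -0.73 for Tmed5, -0.57 for Arl2bp, -0.54 for Prkaa2 and -0.56 for Nrp1. For Hspb7, Asb18, Tefm, Trem2 and 2310030G06Rik the increase under the control vector passed and the Ant1-vector effect, of opposite sign, did not. Their interactions were -0.71, -1.18, -0.58, -1.31 and -1.24, in that order. In the opposite direction interactions were 1.14 for Baiap2, 1.31 for Banp, 1.24 for Mall, 0.57 for Rnf111 and 0.80 for Ggnbp1, both effects passing. For Eln, Fyn, Id1, Tat and Rbp4 the decrease under the control vector passed and the Ant1-vector effect, of opposite sign, did not. Their interactions were 1.24, 0.61, 0.65, 2.65 and 2.51, in that order. Where only the Ant1-vector effect passed, the interaction was 1.44 for Myh7b, -1.30 for Gpr22 and -1.36 for Mpv17l. It was -1.30 for Tet1, 1.09 for Sfrp2 and 1.20 for Adam19.

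A heart lay far from the others of its group, by Dixon's ratio, in 7 of 150 groups of 4 hearts, where chance alone marks about 1 in 20. Wild type heart 70 of the control-vector group was high for Diaph1 (111.6 CPM) and Pdp2 (40.66 CPM) and low for Ppp1r10 (47.77 CPM). Ant1-vector knockout heart 27 was low for Diaph1 (107.6 CPM) and high for Arhgap32 (21.31 CPM). Heart 20 of that group was low for Ppp1r10 (30.09 CPM) and heart 21 for Nrp1 (70.77 CPM).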

How the results depend on the processing

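The 77 interaction genes kept their sign under the 25 alternatives except for 1 gene with only libraries a and b, while the count of calls moved widely. That gene either changed sign or fell below the count minimum, which the count does not tell apart. Without 1 heart, 15 to 172 interaction genes passed, with 2 to 20 effects that shrank, 0 to 3 that grew, 11 to 94 that reversed and 435 to 760 that stayed. The knockout effect then passed for 1366 to 2549 genes under the control vector and 782 to 1748 under the Ant1 vector, and the vector effect for 222 to 1056 genes in knockout and 0 to 91 in wild type hearts. Those fits have fewer hearts. No paired analysis was possible because the 4 groups compared share no heart number.

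With no low-count filter 45 interactions passed, with 6 shrunken, 27 reversed, and 513 and 29 vector effects in knockout and wild type hearts. DESeq2 called 328 interactions, with 47 shrunken, 3 grown, 171 reversed, and 1271 and 159 vector effects, and its calls held all 77. With libraries a and b alone 10 interactions passed, with 1472 and 906 knockout effects under the control and Ant1 vector, 2 shrunken, 7 reversed, 410 stayed and 7 wild type vector effects. Adding the library table as covariate, in the fit on single libraries, gave 498 interactions, which included 47 of the 77. In that fit 67 effects shrank, 23 grew and 225 reversed. In hearts from shared tables, the interaction passed for 2 genes, with 550 and 539 knockout effects, 0 shrunken, 2 reversed, 211 stayed, and 0 and 57 vector effects. With Xist as a covariate 117 passed, only 44 of them among the 77, and 70 reversed. Xist measured 1.76 CPM in control-vector wild type heart 23 and at most 0.206 CPM in the other compared hearts, so this setting does not compare sexes. With only the 4 groups fitted 76 passed, 50 of them among the 77 (Ankrd2 no longer passed), 1 effect grew and 10 wild type vector effects passed. At an adjusted p of 0.01, 3 interactions passed, with 1066 and 601 knockout effects, 1 shrunken, 2 reversed, 306 stayed, and 123 and 0 vector effects. The cause of these moves was not tested, beyond the fewer hearts, libraries or genes that some settings use by construction.

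Over the named genes and alternatives, 1412 interaction values kept direction and side of the threshold, 419 no longer passed, 29 newly passed and 15 changed sign, all in genes whose interaction did not pass. With library table as a covariate the log2 interaction was -0.027 for Calr, -0.353 for Zswim4, 0.002 for Arhgap9 and 0.003 for Tmem116. In hearts that shared tables it was 0.087 for Ankrd1, -0.304 for Zswim4, 0.258 for Arhgap9 and 0.126 for Tmem116. With Xist as a covariate it was -0.074 for Nppb and 0.18 for Sycp1. Without a heart it was -0.18 for Zswim4 (knockout heart 38), -0.06 for Zswim4, 0.077 for Arhgap9 and 0.023 for Tmem116 (wild type heart 70), and -0.028 for Nppa (wild type heart 24). Over the fits without 1 heart these values ranged from -0.18 to 0.384 for Zswim4, -0.608 to 0.077 for Arhgap9, -0.187 to 0.023 for Tmem116 and -0.028 to 0.209 for Nppa. Calls at low levels rest on few counts, as for Ubxn8, Sycp1 and Zswim4 in the group where each is near 0. The same holds for the size of the Slc25a4 effect, with 62, 19 and 10 counts in control-vector knockout hearts 35, 36 and 38. In hearts that shared tables the Slc25a4 interaction was 6.765.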
